A study of Mus musculus with 5 samples.

Results

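Gfi1 and Lsd1 bound many of the same places in MG medulloblastoma, and 500 of these places stood higher in the Gfi1 peak lists than in the Lsd1 lists. They were chosen on the deposited peak scores. Overlapping peaks of the 4 libraries were merged into 44474 sites, of which 16709 (37.6%) held a peak of every library and are called shared sites. At each shared site the score of the highest peak in a library was expressed as a percentile within that library's list, and the mean of the 2 Lsd1 percentiles was subtracted from the mean of the 2 Gfi1 percentiles. The 500 sites with the largest positive difference are described here, 500 of 16709 shared sites.

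The libraries came from 2 MG tumors, numbered 39 and 41. Prominin1+ lin- neural stem cells were sorted from the cerebella of C57BL/6 pups at P5-P7, infected with retroviruses for Myc and Gfi1, and transplanted into the cerebellum of immunodeficient NSG mice. From each tumor, chromatin was immunoprecipitated once with a rabbit polyclonal antibody to Gfi1 (GNE-CJS-2) and once with an antibody to Lsd1 (Abcam ab17721), 4 µg of each, so each factor has 2 replicates and same-numbered libraries share a tumor. All 4 libraries carry virally driven Myc and Gfi1, and there is no tumor here without them. The sample list also names an input library pooled from MGB tumors (Myc with Gfi1b), which was not analysed here.

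Gfi1 is a zinc finger repressor that reads a DNA element built around the letters AATC. Its N-terminal SNAG domain binds Lsd1 (Kdm1a), a demethylase that removes methyl groups from lysines of histone H3 as part of CoREST complexes. Gfi1 can thus carry Lsd1 to places where its zinc fingers touch DNA. Lsd1 is also brought to chromatin by other transcription factors.

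The DNA at these sites held the Gfi1 element more often than the DNA at other shared sites, a property that the choice did not use. The element was searched as AAATCA on both strands, the AATC core with 1 flanking base on each side. Below are stretches from the sites with the largest differences that hold a match, outside annotated untranslated exons, shown because a reader can see the element in its setting. All are from GRCm38 (mm10), 5′ to 3′ on the strand that carries the match nearest the Gfi1 centre. Every match is in capitals, and one that reads TGATTT lies on the other strand.
Smad3 intron, chr9:63747027-63747112, plus strand: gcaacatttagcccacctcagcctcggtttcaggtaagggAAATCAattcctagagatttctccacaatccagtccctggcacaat
Dlgap4 exon-overlapping site, chr2:156705640-156705725, minus strand: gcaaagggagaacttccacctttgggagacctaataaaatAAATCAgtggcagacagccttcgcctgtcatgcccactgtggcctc
Intergenic site nearest Gm11630, chr11:97900488-97900573, plus strand: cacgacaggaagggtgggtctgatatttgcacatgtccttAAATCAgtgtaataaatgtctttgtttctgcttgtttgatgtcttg
Intergenic site nearest Aqp5, chr15:99596048-99596133, plus strand: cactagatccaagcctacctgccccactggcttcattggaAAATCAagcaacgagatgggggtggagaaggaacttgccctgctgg
Creb3l2 intron, chr6:37355063-37355148, plus strand: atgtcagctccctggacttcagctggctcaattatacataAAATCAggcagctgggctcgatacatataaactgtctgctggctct
Rad54l2 intron, chr9:106716338-106716423, plus strand: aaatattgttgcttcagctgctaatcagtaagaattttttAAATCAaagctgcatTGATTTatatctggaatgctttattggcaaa
Intergenic site nearest Gm37306, chr1:177479769-177479854, minus strand: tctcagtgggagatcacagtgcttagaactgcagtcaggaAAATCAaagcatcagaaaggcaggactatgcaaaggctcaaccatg
Gm5737 intron, chr7:120823518-120823603, minus strand: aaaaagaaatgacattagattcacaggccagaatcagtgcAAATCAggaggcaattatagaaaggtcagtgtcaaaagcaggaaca

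The matches stood at different distances from the centre of Gfi1 binding, taken as the mean centre of the highest Gfi1 peaks of both tumors. The match in the Rad54l2 intron was 8 bp from it, the one near Aqp5 76 bp and the one near Gm37306 95 bp. In the Gm5737 intron the distance was 157 bp, at Dlgap4 274 bp, near Gm11630 331 bp, in the Creb3l2 intron 403 bp and in the Smad3 intron 570 bp. Of the highest peaks of the 4 libraries, only the Gfi1 peak of tumor 39 covered the Smad3 match. It lay beyond the ends of both Lsd1 peaks and before the Gfi1 peak of tumor 41. A longer stretch is shown from an intergenic site that ranks 28th, because 3 matches stand close together in it, 1 on the plus strand and 2 on the minus strand (read there as TGATTT).
Intergenic site nearest Atp23, chr10:126928288-126928487, plus strand: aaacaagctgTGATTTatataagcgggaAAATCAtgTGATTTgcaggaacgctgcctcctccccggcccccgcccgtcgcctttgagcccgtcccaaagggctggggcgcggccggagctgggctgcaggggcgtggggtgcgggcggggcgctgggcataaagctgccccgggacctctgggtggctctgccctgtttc

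The site near Atp23, a gene for a mitochondrial inner membrane protease, stood at percentile 73.1 for Gfi1 in tumor 39 and 46.9 in tumor 41. Its Lsd1 percentiles were 0.451 in tumor 39 and 49.4 in tumor 41. In tumor 39 the factors were far apart, and in tumor 41 Lsd1 was slightly above Gfi1.

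The chosen sites were not the strongest Gfi1 sites. Their median Gfi1 percentile was 62.2 in tumor 39 (quartiles 53.2 and 72.3) and 50.1 in tumor 41 (38.1 and 67.1). Over all shared sites the medians were 76.3 and 64.7. Their median Lsd1 percentile was 27.4 in tumor 39 (13.3 and 45.8) and 41.8 in tumor 41 (23.6 and 57.6), against 71.5 and 74.0 over all shared sites. The choice thus picked sites of middling Gfi1 score and low Lsd1 score. Among all shared sites 3468 others had a mean percentile over the 4 libraries between 34.8 and 56.2, the quartiles of the chosen sites, and are called sites of like rank.

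**Figure D1:**
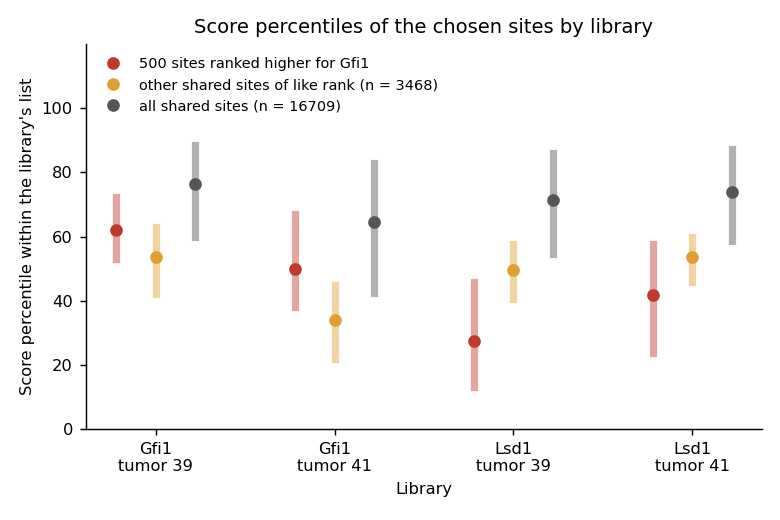
Score percentile within each library's list (vertical axis) in the 4 libraries (horizontal axis), for the 500 sites, 3468 other shared sites of like rank and all 16709 shared sites. Points are medians and bars run between the quartiles, and the 500 sites fall below all shared sites in every library, most in Lsd1 of tumor 39 (27.4 against 71.5).

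The difference that chose the sites was 15.3 percentile points or more, with a median of 19.3, against -1.88 over all shared sites. It was larger in tumor 39, where the median of the chosen sites was 31.9 points, than in tumor 41, where it was 10.0. The Lsd1 library of tumor 39 gave the lowest of the 4 percentiles at 358 of the 500 sites (71.6%), against 22.9% of all shared sites. The Gfi1 library of tumor 39 gave the highest at 351 (70.2%, against 43.2%). So the choice leaned on the libraries of tumor 39 at both ends.

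In tumor 39, 490 of the 500 sites had Gfi1 above Lsd1, where 61.7% of all shared sites did. In tumor 41, 372 did, where the background was 27.4%. Both tumors had Gfi1 above Lsd1 at 362 sites (72.4%), against 16.3% of all shared sites, and at 138 the tumors pointed opposite ways. Both Gfi1 percentiles were above both Lsd1 percentiles at 322 sites (64.4%), against 12.7%. These counts follow from the rule and are given as a description.

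The limit at 500 does not mark a break. The 3 sites just inside it, at Gm45871, at the shared start of Gpatch2 and Spata17, and nearest Cggbp1, had differences of 15.36, 15.34 and 15.34. The 3 just outside, at Abhd14a, at Zfp704 and in 9130204K15Rik, had 15.33, 15.31 and 15.30.

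Choosing in one tumor and reading in the other shows the difference in libraries that the choice did not use. The 500 sites with the largest difference in tumor 39 alone had a median of -20.1 points in tumor 41, where all shared sites had -6.88, and 85 of them (17.0%) were positive there against 27.4% of all. The 500 chosen in tumor 41 alone had a median of 0.700 in tumor 39, where all shared sites had 3.32, and 257 (51.4%) were positive against 61.7%. In neither direction did the excess of Gfi1 over Lsd1 carry over to the other tumor. Across the 16709 shared sites the differences of the 2 tumors had a Spearman correlation of -0.107, given as a description because the sites share libraries.

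**Figure D2:**
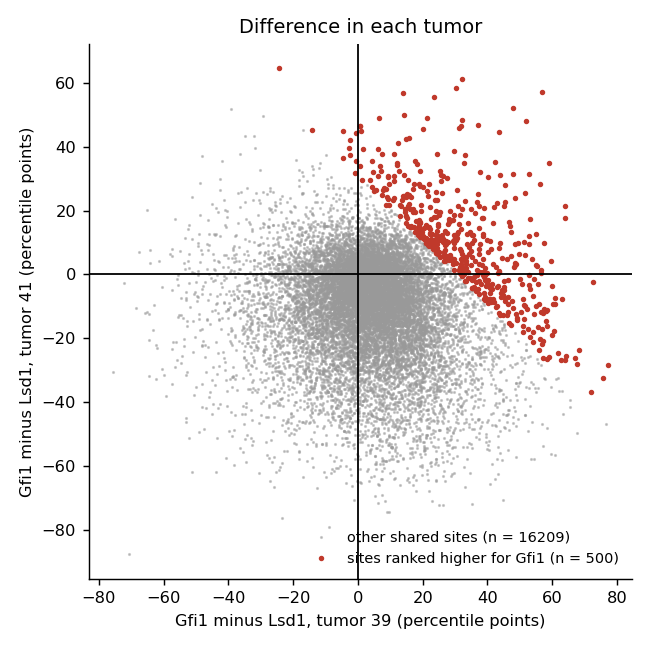
Gfi1 minus Lsd1 percentile in tumor 39 (horizontal axis) and tumor 41 (vertical axis), in percentile points, 1 point per shared site, with the 500 chosen sites in red. The chosen sites fill the upper right edge of the cloud, the cloud itself does not run along the diagonal, and 138 chosen sites lie in a quadrant where the tumors have opposite signs.

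The closest ranks were not those of the libraries that share a tumor. Gfi1 of tumor 39 ranked the shared sites most like Lsd1 of tumor 41 (Spearman correlation 0.882) and less like Gfi1 of tumor 41 (0.803) or Lsd1 of its own tumor (0.788). Lsd1 of tumor 39 was closest to Lsd1 of tumor 41 (0.880). Gfi1 of tumor 41 stood somewhat apart, with 0.834 for Lsd1 of its own tumor and 0.824 for Lsd1 of tumor 39. With the tumors crossed, sites chosen on Gfi1 of tumor 39 against Lsd1 of tumor 41 were positive between the remaining libraries at 35.0%, where all shared sites were at 34.0%, and the reverse choice gave 58.0% against 57.6%. By the mapped reads that the study lists, Gfi1 of tumor 39 and Lsd1 of tumor 41 were the shallower libraries and the other two the deeper ones. The part of depth in these ranks was not tested. The tumor of each library is taken from its label, which the peak lists cannot check, and every difference given by tumor rests on it.

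A small group of sites stood out in both tumors. The 500 largest of tumor 39 and the 500 largest of tumor 41 had 34 sites in common, 6.80% of each list, where 500 sites are 2.99% of all shared sites. All 34 are among the chosen sites, which follows from the rule, since the same percentiles chose both. They include the sites at Smad3, Dlgap4, Fes, Gper1, Tmem201, Creb3l2 and Rad54l2, the site nearest Aqp5 and a site in an intron of Zfp423, a zinc finger regulator of cerebellar development. Of the 34, 24 held the Gfi1 element (70.6%), against 31.3% of all shared sites. At the shares of the other shared sites of like GC content, 39.2% would hold it.

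Among the 10 sites with the largest difference, 9 are described singly. In the Smad3 gene, which encodes a transducer of TGF-beta signals, an intronic site at chr9:63745595-63748740 had Gfi1 percentiles of 67.9 (tumor 39) and 56.4 (tumor 41) and Lsd1 percentiles of 15.8 and 8.41. The 4 highest peaks there had no common base, since the Gfi1 peak of tumor 41 began at 63747337, beyond the ends of the Lsd1 peaks at 63746824 and 63747041. So different stretches of DNA were compared in part at that site. The highest peaks of all 4 libraries shared a base at 459 of the 500 sites (91.8%), against 95.1% of all shared sites, and at the other 41 they were a median of 384 bp apart.

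A site over an exon of Dlgap4, which encodes a scaffold protein of synapses, was the highest of these 9 by its mean Gfi1 percentile. Its Gfi1 percentiles were 82.5 and 95.5 in tumors 39 and 41, and its Lsd1 percentiles 34.6 and 43.4. The Gfi1 peaks there had authors' scores of 1167 and 1041, and the Lsd1 peaks 120 and 160. The 4 peaks lay on each other, at chr2:156703973-156707741, so both tumors gave the same picture at one stretch of DNA.

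In all, 3 of these sites were at the start of a coding gene. Fes, a tyrosine kinase gene, had Gfi1 percentiles of 62.5 and 56.4 and Lsd1 percentiles of 3.63 and 21.4 in tumors 39 and 41. Gper1, which encodes a membrane estrogen receptor, had Gfi1 percentiles of 81.6 and 93.8 and Lsd1 percentiles of 38.2 and 49.1. At Gper1 the Lsd1 peaks were 14321 and 14275 bp wide and the Gfi1 peaks 4824 and 7217 bp, so a narrower, higher-ranked Gfi1 peak lay within a broad Lsd1 domain. Tmem201, which encodes a protein of the inner nuclear membrane, had Gfi1 percentiles of 75.1 and 85.7 and Lsd1 percentiles of 11.1 and 64.3, and its values in tumor 41 were the closest of any tumor in these 9 sites (21.4 points apart). None of these start sites held the short Gfi1 element, which 43.4% of the chosen sites at gene starts held.

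Of the others, the intergenic site nearest Gm11630, 14951 bp away, had Gfi1 percentiles of 36.5 and 65.5 and Lsd1 percentiles of 4.21 and 4.21. An intron of Nadk, the kinase that makes NADP, had Gfi1 percentiles of 58.0 and 65.1 and Lsd1 percentiles of 27.6 and 6.61. Near Aqp5, a water channel gene, the Gfi1 percentiles were 57.2 and 41.2 and the Lsd1 percentiles 0.976 and 13.0. An intron of Creb3l2, which encodes a transcription factor anchored in the endoplasmic reticulum, had 62.0 and 65.6 against 9.09 and 34.1. At each of the 9 sites both Gfi1 percentiles were above both Lsd1 percentiles, as at 49 of the first 50 sites and 12.7% of all shared sites. This follows largely from the rule. Of the 9, 5 held the element, where 36 of the first 50 (72.0%) and 31.3% of all shared sites did.

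**Figure D3:**
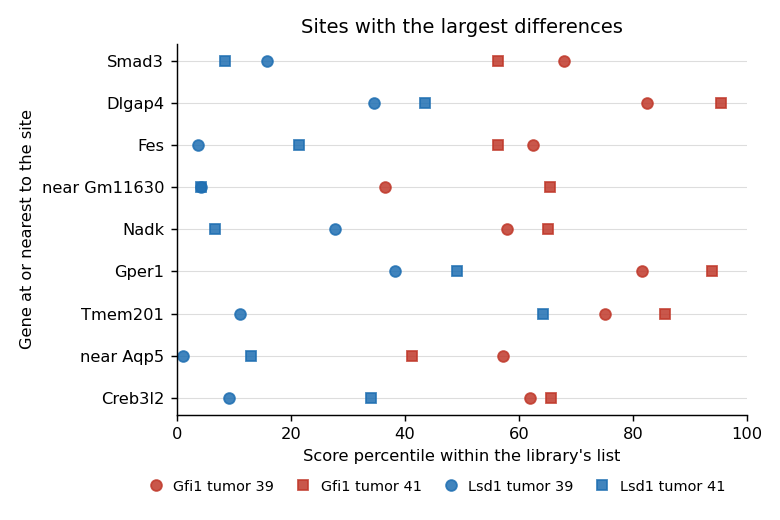
Score percentile (horizontal axis) of 9 of the 10 sites with the largest difference, each in 4 libraries, with Gfi1 in red, Lsd1 in blue, circles for tumor 39 and squares for tumor 41. In every row both red points lie right of both blue points, closest for Tmem201 (75.1 against 64.3).

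Sites with the next largest differences had a like order of the libraries away from gene starts. An intron of Rad54l2, a gene of the Rad54 helicase family, had Gfi1 percentiles of 64.0 and 63.8 in tumors 39 and 41 and Lsd1 percentiles of 26.9 and 17.0. The intergenic site nearest Gm37306 had 44.6 and 51.7 against 12.6 and 3.44, and the intron of Gm5737 had 55.7 and 56.9 against 7.93 and 25.4. Near Fignl1, a gene of DNA repair, the values were 38.5 and 68.8 against 14.9 and 13.2. At all of these sites the percentiles of the 2 factors did not overlap, as at 49 of the first 50 sites and 12.7% of all shared sites. Each site held the element, where 72.0% of the first 50 and 31.3% of all shared sites did. Near Dab2ip, which encodes a Ras GTPase-activating protein, the values were 65.3 and 67.03 against 1.48 and 49.3, with no match to the element.

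Over exons, Pfas, an enzyme gene of purine synthesis, had Gfi1 percentiles of 65.7 and 49.7 and Lsd1 percentiles of 10.7 and 37.2. Scn8a, which encodes a neuronal sodium channel, had 53.2 and 19.4 against 2.09 and 9.45 and held 3 matches to the element. At Scn8a and at Gm38293 most of the difference came from tumor 39, with 51.1 and 53.8 points, against 9.98 and 4.96 in tumor 41. At gene starts, Rabep2, an effector of Rab GTPases in endosomes, had 55.1 and 63.1 against 9.70 and 35.0. The shared start of 4930519G04Rik and Gm9936 had 71.4 and 78.4 against 40.2 and 32.7. Both start sites held 1 match.

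The 500 sites were less often at gene starts than shared sites in general, but more often than sites of like rank. A transcription start site (TSS) of any annotated transcript lay within 1000 bp of 272 of them (54.4%), against 72.2% of all shared sites, 44.5% of sites of like rank and 35.2% of the 500 sites most toward Lsd1. A start of a protein-coding gene was at 235 (47.0%, against 67.3% of all). Of the 228 others, 98 were intronic, 112 intergenic and 18 over an exon, with a median of 7948 bp to the nearest TSS, where all shared sites away from a TSS had 8465 bp. Their distances were thus close to those of other distal shared sites. The contrast with shared sites in general was lost in 2 other choices of 500 sites. With a scaled log10 score in place of the percentile, 72.8% were at a TSS against 72.2% of the other shared sites, and without the Gfi1 library of tumor 41 the shares were 66.0% and 67.7%.

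CpG-rich DNA, counted as an observed-to-expected CpG ratio of at least 0.6 with at least 50% G and C over 1000 bp, was found at 107 of the 500 (21.4%). Over all shared sites the share was 42.0%, in sites of like rank 15.3% and in the 500 toward Lsd1 8.40%. This contrast with all shared sites was lost with the scaled log10 score (41.6% against 42.0% of the other shared sites) and turned without the Gfi1 library of tumor 41 (43.6% against 38.7%), while without the Lsd1 library of tumor 39 the share was 5.4%, against 42.5%. The median GC content was 53%, against 55% over all shared sites and 52.5% in sites of like rank. The sites were also narrower, with a median merged width of 1987 bp against 2867 bp over all shared sites and 2245 bp in sites of like rank. Their highest Gfi1 peaks were 1591 bp (tumor 39) and 1547 bp (tumor 41) wide in the median, and their highest Lsd1 peaks 1247 bp and 1296 bp. Over all shared sites the order was the other way, with Gfi1 peaks of 2011 and 1893 bp and Lsd1 peaks of 2392 and 2268 bp. The widths belong to the peaks that gave the scores, so they are not independent of the choice.

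Chromosome X held 17 of the sites (3.40%), against 1.56% of all shared sites and 2.39% of sites of like rank. Of these 17, 14 were at a TSS and 13 had Gfi1 above Lsd1 in both tumors. The Gfi1 list of tumor 39 had 2.08% of its peaks on X, and the other lists between 1.14% and 1.42%.

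The Gfi1 element AAATCA was in the central 1000 bp of 246 of the 500 sites (49.2%), against 31.3% of all shared sites. Sites of like rank had it at 34.1% and the 500 most toward Lsd1 at 31.6%. Away from a TSS, 128 of 228 chosen sites held it (56.1%), against 37.9% of all distal shared sites, and at a TSS 118 of 272 (43.4%), against 28.8%. At least 2 matches were found in 72 of the sites (14.4%), against 6.84% of all. The longer form AATCACNGC was in 22 (4.40%), against 2.50%. In 300-base RefSeq promoters of GRCm38 the short form was found in 14.0% and the longer in 0.919%.

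The share was highest at the largest differences. It was 72.0% in the first 50 sites of the ranking (36 sites), 50% in the next 50, and between 44.0% and 48.0% in each later 100. Place changed too, since 28% of the first 50 were at a TSS, against 54% of the next 50 and 50% to 64% of each later 100. In the 500 sites that follow beyond the limit it was 39.8%. When all shared sites were split by the difference into 10 equal bins, it went from 32.3% in the bin most toward Lsd1 to 49.4% in the bin most toward Gfi1 away from a TSS, and from 26.1% to 39.2% at a TSS. With both places together it stayed between 27.8% and 29.6% in bins 1 to 7, counted from the Lsd1 end, and reached 42.3% in bin 10. Of the chosen sites, those where both Gfi1 percentiles were above both Lsd1 percentiles had it at 53.7%, and the rest at 41%. Their median GC contents were 51.9% and 55.35%.

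**Figure D4:**
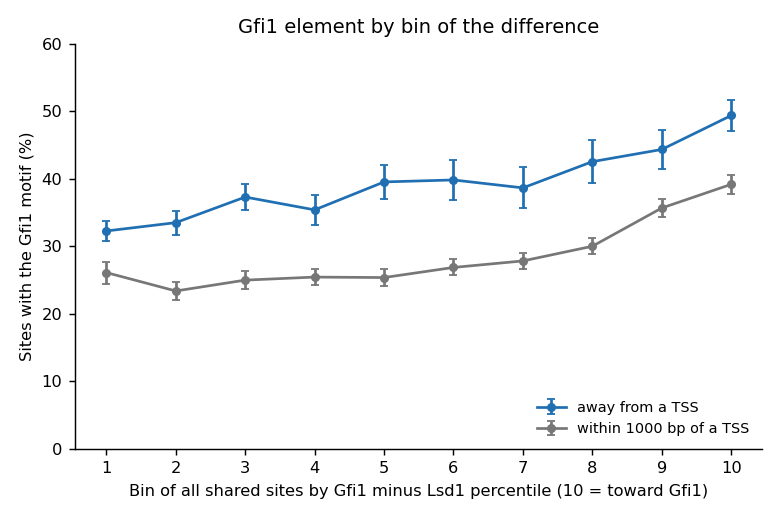
Share of sites with the Gfi1 element AAATCA (vertical axis, %) in 10 equal bins of all 16709 shared sites ordered by Gfi1 minus Lsd1 percentile (horizontal axis, bin 10 being most toward Gfi1), for sites within 1000 bp of a TSS and sites away from one. Bars are binomial standard errors over sites, which cover counting error only, and both lines end higher than they begin (49.4% against 32.3% away from a TSS).

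The base composition of the sites moved with this share, and the difference stood within classes of equal GC content. In sites with at most 45% GC, 88.5% of the 26 chosen sites held the element, against 57.9% of the other shared sites. Between 45% and 50% GC the shares were 61.1% and 45.2%, and between 50% and 55% they were 53.7% and 36.2%. Between 55% and 60% they were 35.6% and 27.2%, and above 60% they were 17.0% (53 chosen sites) and 15.0%. Had each GC class of the chosen sites held the element as often as the other shared sites of that class, 35.2% of the 500 would have it.

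Among all 2080 pairs of a 6-letter word and its reverse complement, AAATCA showed the largest excess in the chosen sites over the other shared sites, 18.4 percentage points, and also over sites of like rank, 15.1 points. The 29 other orders of the same 6 letters ran from -1.36 to 12.9 points against the other shared sites. Against the other shared sites the next word was AATCTG, with 13.2 points, and 6 of the first 10 words held the AATC core. Against sites of like rank the next words were AAATCT (11.1 points) and CGCCGC (10.6 points). GC-rich words thus also stood high in that comparison. The words overlap in sequence, so they do not count as separate evidence.

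Of the other motifs searched, the TATA box TATAAA had the largest excess over all shared sites, in 29.8% of the chosen sites against 23.3%. It was in 27.2% of sites of like rank and in 32.4% of the 500 sites most toward Lsd1, above the chosen sites. The proneural E-box CAGCTG was in 45% of the chosen sites and 47.3% of all, the Myc-type E-box CACGTG in 20% and 20.9%, and the AP-1 element TGANTCA in 20.4% and 19.1%. Sites of like rank had them at 54.0%, 20.1% and 24.8%, and the 500 most toward Lsd1 at 56.2%, 17.2% and 27.6%. Against those sets the proneural E-box and the AP-1 element were thus less frequent in the chosen sites. The GC-rich SP box GGGCGG was in 49.6% against 62.8%, the ETS element CCGGAAG in 16.2% against 19.5% and the YY1 element AAGATGGCG in 1.00% against 3.54%. Of the sites of like rank, 46.3% had the SP box and 10.5% the ETS element. No match says only that these letters are not in the window.

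Away from gene starts, the element was also denser near the middle of Gfi1 binding than far from it. Per 100 sites and 100 bp, the 228 distal chosen sites had 10.3 matches within 200 bp of the Gfi1 centre and 6.36 beyond 600 bp, a ratio of 1.62 (94 and 116 matches). Distal sites of like rank had 5.20 and 5.69, a ratio of 0.913, and all other distal shared sites 4.68 and 5.50, a ratio of 0.851. In the distal sites of the 500 most toward Lsd1 the ratio was 0.614. So the matches were denser within 200 bp of the Gfi1 centre than beyond 600 bp in the chosen sites and not in these others. Single bins of the chosen sites were uneven, with 7.46 matches from -100 to 0 bp and 10.96 from -600 to -500 bp. With sites at a TSS included, the ratios were 0.928 in the chosen sites and 0.527 in the other shared sites.

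**Figure D5:**
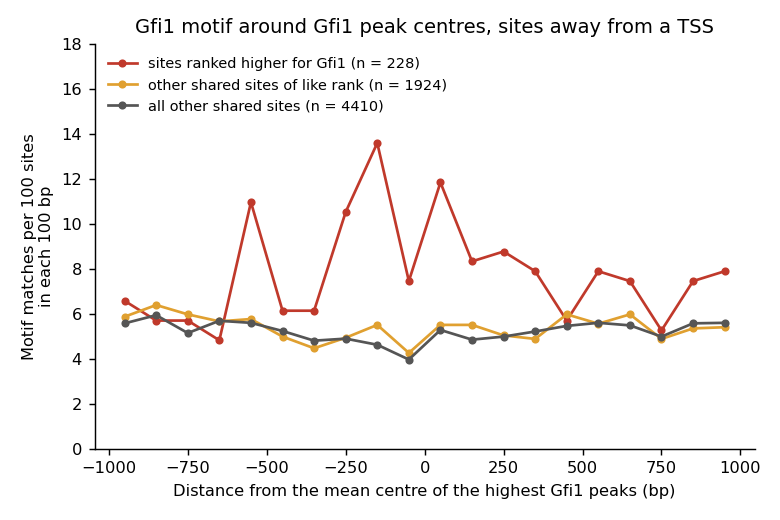
Matches to AAATCA per 100 sites in each 100 bp (vertical axis) by distance from the mean centre of the highest Gfi1 peaks (horizontal axis, bp), for sites away from a TSS. The 228 chosen sites average 10.3 within 200 bp of the centre and 6.36 beyond 600 bp, while the other sets show no rise at the centre.

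Each tumor alone gave part of this picture. The 500 sites chosen in tumor 41 alone held the element at 53.6%, where 43.1% would have it at the shares of the other shared sites in their GC classes. Those chosen in tumor 39 alone held it at 34.0%, near the 31.3% of all shared sites, but they were GC-rich (median 57.8%, against 49.0% for tumor 41), and the shares of their GC classes would give 26.8%. Position was read in the distal sites of each choice, 164 for tumor 39 and 299 for tumor 41. There the ratio of matches near the Gfi1 centre to those far from it was 2.06 for tumor 39 and 1.39 for tumor 41. So in both tumors the element was in excess for its GC class, and in the distal sites denser near the centre. The raw share stood clearly above the background in tumor 41. Without the Gfi1 library of tumor 41, the 500 sites chosen from the remaining 3 libraries held it at 28.6%, against 30.1% of the other sites shared by those libraries and 24.4% at the shares of their GC classes. They had 132 sites in common with the 500. No test between the factors was run at single sites, and the smallest two-sided p that an exact permutation of 2 against 2 allows is 0.333.

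Among gene starts, zinc finger genes and mitochondrial ribosomal protein genes took a larger share of the chosen TSS sites than of all shared TSS sites, as a description of lists with no test. Zinc finger genes, most of which encode DNA-binding repressors, were at 16 of the 272 (5.88%), against 3.28% of all shared TSS sites. Genes for mitochondrial ribosomal proteins, which build the ribosome inside mitochondria, were at 5 (1.84%), against 0.696%. Of the sites of like rank at a TSS, these lists took 3.63% and 0.0648%.

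Zfp759 had Gfi1 percentiles of 60.7 in tumor 39 and 67.4 in tumor 41 and Lsd1 percentiles of 41.4 and 34.9. Zfp72 had Gfi1 percentiles of 35.7 and 18.97 and Lsd1 percentiles of 0.41 and 6.55. Zkscan8 had Gfi1 percentiles of 85.8 and 79.3 and Lsd1 percentiles of 48.1 and 69.7. In these 3 genes Gfi1 was above Lsd1 in both tumors, and in each the groups did not overlap. Zfp229 had 62.8 and 53.9 against 6.29 and 52.5, so that in tumor 41 the factors were 1.37 points apart. Zxda, on the X chromosome, had 77.4 and 29.7 against 43.7 and 17.1, and its groups overlapped.

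Mrpl44, which shares its start with Wdfy1, had Gfi1 percentiles of 79.0 and 85.7 in tumors 39 and 41 and Lsd1 percentiles of 65.6 and 64.3, and Mrpl16 had 66.1 and 74.1 against 46.8 and 57.7. Mrpl3 had 67.9 and 54.4 against 23.5 and 49.4, and Mrpl23 had 89.8 and 77.2 against 57.7 and 72.7. Only Mrpl14, of these 5, had Lsd1 above Gfi1 in a tumor, at 33.8 against 26.7 in tumor 41, and at that site the highest peaks had no common base. All 5 sites held the short Gfi1 element, where 43.4% of the chosen TSS sites and 28.8% of all shared TSS sites did. The count is small and was not tested.

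Other gene lists of housekeeping machinery were missing from the chosen TSS sites. None of the 85 shared TSS sites of cytosolic ribosomal proteins was among the 500, nor any of 93 of oxidative phosphorylation (whose list has 1 chosen site in an intron, of Ndufs4), 71 of splicing, 67 of translation factors, 50 of the proteasome or 34 of histone clusters. The genes of the proteins studied here, among them Gfi1, Myc and Kdm1a, had 7 shared TSS sites, and none was chosen. None of 26 at p53 target genes and none of 25 at genes of neuronal structure and adhesion was chosen either. The chosen sites are a small share of all shared TSS sites, so that counts of 0 in lists of this size single out no list.

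Large families of transporters and ubiquitin enzymes were not over-represented. Solute carrier genes were at 2 of the 272 TSS sites (0.735%, against 1.82% of all shared TSS sites), genes of the ubiquitin system at 3 (1.10%, against 2.24%) and microRNA genes at 3 (1.10%, against 1.76%). The 2 solute carrier genes were Slc23a2, a vitamin C transporter gene, with Gfi1 percentiles of 47.7 and 33.5 and Lsd1 percentiles of 10.4 and 12.01, and Slc7a2, a transporter gene for basic amino acids, with 70.5 and 76.3 against 35.3 and 70.8. The microRNA site with the largest difference was at Mir192 and Mir194-2, and there tumor 41 had Lsd1 above Gfi1 (55.9 against 45.8). Med4, a Mediator subunit gene, had 77.6 and 80.4 against 58.4 and 66.7.

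Genes for neural and growth regulators were few in number and mixed in their values, though their shares were above the background. The neuronal differentiation list had 2 chosen TSS sites (0.735%, against 0.331% of all shared TSS sites). The growth signalling list had 3 (1.10%, against 0.547%). The list of neuronal structure and adhesion went the other way (0%, against 0.207%). These counts are small and were not tested. Nfix, which encodes a transcription factor of cerebellar granule neurons, had Gfi1 percentiles of 93.6 and 98.8 and Lsd1 percentiles of 74.1 and 76.9 in a merged site of 43744 bp, where the highest peaks of the 4 libraries had no common base. Gse1, whose product is found with CoREST complexes, had 90.7 and 93.6 against 59.8 and 80.5. Smad4, the common partner of Smad proteins, had 83.3 and 82.2 against 54.0 and 71.6. In these 3 genes both Gfi1 percentiles were above both Lsd1 percentiles.

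Pax6, a regulator of granule neuron progenitors, had Gfi1 percentiles of 80.6 in tumor 39 and 19.1 in tumor 41 and Lsd1 percentiles of 8.66 and 56.0. Its difference was 71.9 points in tumor 39 and -36.9 in tumor 41. Erbb4, a neuregulin receptor gene, had 68.2 and -23.7. For both genes the place in the ranking came from tumor 39, and tumor 41 pointed the other way.

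Junb, an immediate early gene, had Gfi1 percentiles of 98.6 and 99.5, an Lsd1 percentile of 42.1 in tumor 39 and one of 99.2 in tumor 41. Its Lsd1 peak of tumor 39 was 15861 bp wide, about as broad as that of tumor 41 (15233 bp), while the authors' scores were 155 and 3100. Ccnd1, the cyclin D1 gene, had Gfi1 percentiles of 98.6 and 99.9 and Lsd1 percentiles of 67.1 and 99.2, with differences of 31.5 and 0.75. Junb and Ccnd1 had the same score, 3100, in Gfi1 of tumor 39 and again in Lsd1 of tumor 41. Their equal percentiles there are the average rank of tied scores and do not order the 2 sites. Dll4, a Notch ligand gene, had 99.9 and 94.3 against 66.4 and 96.5. All of these stood near the top of both lists in tumor 41, and only the Lsd1 score of tumor 39 set them apart.

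Away from a TSS, genes of the growth signalling list held 3 of the chosen sites, in Fgfr2, Ptch1 and Smad3, of 41 distal shared sites in genes of that list. Ptch1 encodes the receptor of the sonic hedgehog pathway and Fgfr2 a receptor of fibroblast growth factors. A distal chosen site also lay in Nfib, a relative of Nfix, of 17 distal shared sites in genes of the neuronal differentiation list. Zfp423 held 2, of 39 in zinc finger genes. Gse1 held 2, of 20 in genes of Lsd1-CoREST complexes and histone deacetylases. Solute carrier genes held 3, in Slc7a1, Slc20a2 and Slc44a2, of 48. Of all 4638 distal shared sites 228 were chosen, so these small counts single out no gene or list.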

How the data were processed

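Peak lists of 4 ChIP-seq libraries, Gfi1 and Lsd1 from tumors 39 and 41, were used. The authors aligned reads to mm10 with BWA 0.6.2, merged files and removed duplicates with Picard, and called peaks per library with MACS at default settings against input. The deposited lists give a position and the authors' score for each peak. The score is 50.0 or more in each list, its definition is not given in the sources used here, and it was used only as a rank within a list. The lists carry no read counts, so no precision per peak can be given. They hold 36836 and 25078 Gfi1 peaks and 30367 and 33213 Lsd1 peaks in tumors 39 and 41.

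Peaks sharing at least 1 bp were merged, percentiles were average ranks within a list, and the 500 sites were taken as described. TSSs and exons came from GENCODE M21 (132633 separate TSSs) and sequence from the RefSeq copy of GRCm38.p6. Motifs were counted on both strands in 1000 bp around the site midpoint. Steps used Python 3.11.15, numpy 2.4.6, pandas 2.3.3, scipy 1.17.1 and pysam 0.24.0. On simulated lists, 500 of 500 planted sites and 200 of 200 planted motifs were found. The shift was planted alike in both libraries of a factor, and the motifs in sequence of C and G only. This checks the steps and not how well the 500 sites of the real lists were chosen. Same-numbered libraries come from the same tumor by their labels, but their deviations from the factor means had a correlation of -0.201 over shared sites.

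The sites, gene lists and motifs were chosen with earlier results of these data known. Genes are named by a fixed rule: the 10 largest differences, the 5 largest in each genomic class, up to 5 TSS sites for each gene list, and 3 sites on each side of the limit. Sites named otherwise (those in both tumors' lists, the stretch near Atp23 and distal sites in listed genes) were chosen after their values were seen. No test over sites was run, since sites are not replicates. The position, gene and values of 1 of the 10 sites with the largest difference are not reported here.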

Additional observations from a re-analysis of the deposited data

Results flagged for a closer look

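The median Gfi1 minus Lsd1 percentile over all shared sites was 3.32 points in tumor 39 and -6.88 points in tumor 41, with opposite signs. A percentile depends on what else is in its list. Shared sites hold 80.7% of the peaks of the shortest list, Gfi1 of tumor 41 (25078 peaks), and between 56.2% and 61.7% of the other lists. The part of this in the signs was not tested, and the signs are not read as a difference between tumors. The 500 sites with the largest difference in tumor 39 had a median of -20.1 points in tumor 41, below that of all shared sites there. These differences between tumors were not tested, since each factor has 1 library per tumor.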

How the results depend on the processing

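The number of shared sites, 16709, fell to 11744 with 1 peak per list and stayed within 1.5 times under the alternatives tried. The shares at a TSS and in CpG-rich DNA stayed within the spread between the choices of the single tumors (1 SD, 19.1 and 25.2 percentage points) under every alternative tried, a wide spread that passes large moves, such as 72.8% at a TSS and 41.6% CpG-rich with the scaled log10 score. Leaving out 1 library at a time gave 35.4% to 66.0% at a TSS, 5.4% to 43.6% CpG-rich, 17404 to 20034 shared sites, a median width of 1823 to 2059 bp, 132 to 279 of the 500 sites kept, and 28.6% to 54.2% with the Gfi1 element, lowest without the Gfi1 library of tumor 41. The share with Gfi1 above Lsd1 in both tumors is not defined there. The median width was 3214.5 bp with the mean percentile of a site's peaks, 2221.5 bp on a scaled log10 score and 1807.5 bp with 1 peak per list. With the replicate block (the smaller of the within-tumor differences) it was 2104 bp, 251 sites were kept, all (100%) were positive in both tumors by construction, and 51.6% held the element. With crossed tumors 305 sites were kept. The mean percentile kept 257 and a list of 250 members, by its size, 250. The element was in 12.2% of sites in 200 bp windows (6.42% of all shared sites) and the longer form in 4.40%, fewer since the window is shorter or the motif longer. An alternative chosen after seeing the data, requiring the highest peaks to share a base, gave a width of 1906.5 bp and 47.8% with the element. For the other moves the cause was not tested.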
